A study of Mus musculus with 4 samples.

Results

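The 8 genes described here encode the transcription factors of the heart programme: the LIM homeodomain factor Isl1, the NK-2 homeodomain factor Nkx2-5, the MADS box factor Mef2c, the bHLH factors Hand1 and Hand2, and the zinc finger factors Gata4, Gata5 and Gata6. They were taken from a fixed list, not by their values, and were matched by Ensembl ID in all 4 gene tables of a mouse single-cell RNA-seq study. They are 8 of 27514 genes that the 4 tables share. None of them served as a marker for the cell groups used below.

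In the embryo these factors act together on shared enhancers of cardiac genes. Isl1 marks second heart field progenitors, which lie in the pharyngeal mesoderm and add cells to both poles of the heart tube, and it is also a classical factor of motor and sensory neurons. Nkx2-5, Mef2c and the GATA factors bind at genes of the contractile apparatus, and Nkx2-5 and Gata4 are known to bind each other. Hand1 and Hand2 are bHLH factors of the chambers, the outflow tract and the lateral mesoderm. Tbx1, the gene that the study inactivated, is a T-box factor of the pharyngeal apparatus and of the anterior second heart field.

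The study sorted cells with a history of Tbx1 expression from pooled Swiss Webster embryos and sequenced them with a 10x Genomics 3′ kit. Control embryos were Tbx1Cre/+;Rosa26-GFPflox/+ (Ctrl) and mutant embryos were Tbx1Cre/flox;Rosa26-GFPflox/+ (cKO). Embryos of embryonic day 8.5 (E8.5) gave their upper body, and those of E9.5 gave the heart and the pharyngeal apparatus. The design asks how the Tbx1 lineage differs with and without a working Tbx1 gene at each stage. The Cre recombinase is knocked into Tbx1 and takes the place of one copy, so the Ctrl embryos carry a single functional copy. Cells were sorted for the GFP reporter, switched on through Tbx1Cre, and for exclusion of the dye DAPI. The sort was thus meant to leave out heart cells of other origin, and its purity was not tested.

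Each of the 4 conditions was 1 library, and no test between conditions was possible. The libraries held 1434, 1090, 5453 and 6266 cells in the order Ctrl_E8.5, cKO_E8.5, Ctrl_E9.5 and cKO_E9.5, with median depths of 17319.5, 23984, 16666 and 15910.5 unique molecular identifiers (UMIs) per cell. Levels are given as UMIs per 1000000 UMIs of the shared genes (UPM) in the summed cells of a group, with exact Poisson 95% intervals that cover counting error only. Because the kit counts 3′ ends, a UMI stands for a molecule whatever the length of its transcript. Genotype and library cannot be told apart, nor can stage, dissection and library. By the study's somite counts the cKO embryos of E8.5 were slightly older than the Ctrl ones, with ranges that met. Genotype and embryo age thus cannot be told apart at E8.5 either. The cKO_E9.5 table lists 31053 genes where the others list 27998. Tbx1 itself was not lower in the mutants: it stood at 86.4, 118, 103 and 134 UPM in the same order. Counts at the 3′ end cannot show a recombined allele, so "cKO" below means the library labelled cKO.

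Cells were placed in groups by counting the markers with at least 1 UMI in each cell. Cardiomyocyte-like (CM-like) cells had 6 or more of 8 sarcomere markers. Posterior second heart field-like (pSHF-like) cells had 3 of Tbx5, Wnt2, Foxf1, Osr1, Hoxb1 and Aldh1a2, and anterior second heart field-like (aSHF-like) cells had 3 of Fgf10, Sema3c, Rgs5, Tdgf1, Fgf8, Wnt11 and Nrp2. Branchiomeric muscle-like (BrM-like) cells, the precursors of jaw and neck muscle, had 3 of 7 head muscle markers, among them Tcf21, Msc and Lhx2. Multilineage progenitor-like (MLP-like) cells had 2 or more UMIs of Arg1 and at least 1 of both Rdh10 and Vamp8. The numbers of markers needed were set after the cells had been seen, from the marker counts alone. Endothelial-like, epithelial-like, neural-like, neural crest-like, somitic-like and mesenchyme-like cells were formed the same way, with 5 of 8, 4 of 6, 3 of 8, 3 of 5, 2 of 5 and 4 of 8 markers. Epithelial cells with a UMI of Foxa1, Foxa2, Shh or Sox17 were called endoderm-like. In library order, 16, 20, 109 and 58 cells met several gates and were set aside as mixed, and 499, 218, 1008 and 1326 cells met none.

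In library order the groups held 34, 24, 136 and 76 CM-like cells, 26, 43, 104 and 142 pSHF-like cells, and 59, 51, 109 and 37 aSHF-like cells. There were 118, 149, 129 and 339 MLP-like cells and 56, 50, 306 and 246 BrM-like cells. All 8 cardiomyocyte markers had UMIs in the CM-like cells of every library. Of the aSHF markers, Tdgf1 was at 0 in 3 of the 4 libraries and Wnt11 in both cKO libraries, so the aSHF-like label rests on the other markers. The myogenic marker Myf5 was at 0 in the BrM-like cells of both E8.5 libraries, and Myod1 also in cKO_E8.5. Between 2 libraries at most 55 cell barcodes were shared (Ctrl_E9.5 and cKO_E9.5), and otherwise 2 to 10.

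RefSeq (build GRCm38.p6) places Isl1 at chr13:116298270-116309688, Nkx2-5 at chr17:26838664-26844988 and Hand2 at chr8:57320983-57324517. The promoter windows of these 3 genes, 250 bases before to 50 bases after the annotated start, are shown as a LIM, an NK-2 and a bHLH member whose log2 ratios of cKO over Ctrl at E9.5 had intervals below 0 in both pSHF-like and MLP-like cells. Mef2c was below 0 in both too and had 3 windows, which are described but not printed. The Nkx2-5 window lies inside that gene's span. Capitals mark every match to a searched motif, on either strand, and all other bases are in lower case.
Isl1 (chr13:116309639-116309938, minus strand): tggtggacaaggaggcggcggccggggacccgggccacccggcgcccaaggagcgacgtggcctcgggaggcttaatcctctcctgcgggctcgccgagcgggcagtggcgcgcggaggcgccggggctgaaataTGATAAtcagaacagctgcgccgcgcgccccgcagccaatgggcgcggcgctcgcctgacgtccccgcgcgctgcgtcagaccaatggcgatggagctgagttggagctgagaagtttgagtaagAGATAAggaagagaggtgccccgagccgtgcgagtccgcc
Hand2 (chr8:57320733-57321032, plus strand): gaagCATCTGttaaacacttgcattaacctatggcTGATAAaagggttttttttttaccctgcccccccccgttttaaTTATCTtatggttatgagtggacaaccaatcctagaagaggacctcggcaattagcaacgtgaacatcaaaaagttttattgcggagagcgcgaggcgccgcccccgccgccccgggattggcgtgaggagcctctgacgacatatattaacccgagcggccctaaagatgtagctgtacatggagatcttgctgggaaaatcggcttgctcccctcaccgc
Nkx2-5 (chr17:26841516-26841815, minus strand): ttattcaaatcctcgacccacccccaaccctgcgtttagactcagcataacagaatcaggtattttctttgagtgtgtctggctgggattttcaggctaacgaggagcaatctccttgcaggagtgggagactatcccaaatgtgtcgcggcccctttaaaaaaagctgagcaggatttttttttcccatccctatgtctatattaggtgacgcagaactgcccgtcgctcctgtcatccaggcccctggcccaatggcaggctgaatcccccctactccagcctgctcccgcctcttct
The motifs were the GATA factor sites AGATAA and TGATAA, the NK-2 site TNAAGTG, the MEF2 site TATTTATA, the T-box core GGTGTGA and the bHLH E-box CATCTG. They occur in 11.2%, 9.05%, 11.5%, 1.7%, 3.98% and 17.2% of 32851 windows of this length. The Isl1 window held AGATAA starting 11 bases after the start and TGATAA 115 bases before it. The Hand2 window held CATCTG 246, TGATAA 215 and, on the other strand, AGATAA 172 bases before the start. The Nkx2-5 window held none of the 6 motifs. The 2 GATA motifs share letters, but no 2 matches overlapped here. A match is a run of letters and not a shown binding site.

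Windows were given for 5 of the 8 members. The Gata5 window held no match. Mef2c had 3 windows at 3 annotated starts, and only the last held a match, CATCTG. The 3′ counts cannot tell which Mef2c start was used. Hand1, Gata4 and Gata6 had no window.

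Nkx2-5, a widely used marker of cardiac cells, was highest in CM-like cells of every library. Its level there was 425 UPM in Ctrl_E8.5, 375 in cKO_E8.5, 532 in Ctrl_E9.5 and 431 in cKO_E9.5. In pSHF-like cells it was 48.1 UPM in Ctrl_E8.5, 50.8 in cKO_E8.5, 187 in Ctrl_E9.5 and 57.7 in cKO_E9.5. In aSHF-like cells it was 42.7 UPM in Ctrl_E8.5, 61.9 in cKO_E8.5, 73.3 in Ctrl_E9.5 and 41.6 in cKO_E9.5. Ctrl_E9.5 was the highest library in all 3 groups. MLP-like cells held less: 20.3 UPM in Ctrl_E8.5, 19.3 in cKO_E8.5, 59.5 in Ctrl_E9.5 and 17.5 in cKO_E9.5. Outside the mesoderm Nkx2-5 was found in the endoderm-like cells, at 89.9 UPM in Ctrl_E9.5 and 105 in cKO_E9.5 over 193 and 31 cells, and in the other epithelial-like cells, at 61.6 and 41.8 UPM over 513 and 155 cells. In Ctrl_E9.5 the endoderm-like level and the aSHF-like level had overlapping intervals.

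Mef2c, the MADS box factor of both heart and skeletal muscle, was also highest in CM-like cells of every library: 344 UPM in Ctrl_E8.5, 507 in cKO_E8.5, 568 in Ctrl_E9.5 and 464 in cKO_E9.5. Endothelial-like cells, of the vessel lining, held 103 UPM in Ctrl_E8.5, 126 in cKO_E8.5, 181 in Ctrl_E9.5 and 155 in cKO_E9.5. The aSHF-like cells held 79.5 UPM in Ctrl_E8.5, 164 in cKO_E8.5, 209 in Ctrl_E9.5 and 77.8 in cKO_E9.5. In Ctrl_E9.5 these groups had overlapping intervals, and in cKO_E9.5 they did not. The neural crest-like cells of the E8.5 libraries, only 22 and 11 cells, held 155 and 181 UPM. In epithelial cells it was near 0: the endoderm-like cells of Ctrl_E9.5 gave 5.24 (95% interval 3.2 to 8.09) UPM, and those of cKO_E9.5 gave 0 of 31 cells, which allows a share of cells with a UMI of up to 9.68%.

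Isl1 had its highest E9.5 level in the neural-like group and not in the heart. The 25 and 106 neural-like cells held 549 (95% interval 480.5 to 625) UPM in Ctrl_E9.5 and 315 (95% interval 293 to 339) UPM in cKO_E9.5. CM-like cells came next, and were the highest group at E8.5, with 107 UPM in Ctrl_E8.5, 143 in cKO_E8.5, 274 in Ctrl_E9.5 and 141 in cKO_E9.5. Then followed the aSHF-like cells, with 84 UPM in Ctrl_E8.5, 122 in cKO_E8.5, 199 in Ctrl_E9.5 and 109 in cKO_E9.5. The 3 levels in Ctrl_E9.5 had intervals apart from each other, but in cKO_E9.5 those of the CM-like and aSHF-like cells overlapped. In MLP-like cells Isl1 stood at 60.4 UPM in Ctrl_E8.5, 40.6 in cKO_E8.5, 152 in Ctrl_E9.5 and 62.1 in cKO_E9.5. In pSHF-like cells it stood at 46.4 UPM in Ctrl_E8.5, 56 in cKO_E8.5, 151 in Ctrl_E9.5 and 81.7 in cKO_E9.5. In BrM-like cells it stood at 58.1 UPM in Ctrl_E8.5, 60.5 in cKO_E8.5, 116 in Ctrl_E9.5 and 31 in cKO_E9.5. Each of these groups was highest in Ctrl_E9.5. Epithelium carried it too, with 128 and 67.5 UPM in the endoderm-like and 108 and 71.2 UPM in the other epithelial-like cells of Ctrl_E9.5 and cKO_E9.5.

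The 2 bHLH genes differed in where they were seen. Hand2, a factor of the right ventricle, outflow tract and pharyngeal mesenchyme, was found in every heart field group, led by the CM-like cells with 67.8 UPM in Ctrl_E8.5, 99.3 in cKO_E8.5, 136 in Ctrl_E9.5 and 108 in cKO_E9.5. The aSHF-like cells held 19.5 UPM in Ctrl_E8.5, 32.8 in cKO_E8.5, 85 in Ctrl_E9.5 and 63 in cKO_E9.5. The pSHF-like cells held 39.5 UPM in Ctrl_E8.5, 37.6 in cKO_E8.5, 67.1 in Ctrl_E9.5 and 22.9 in cKO_E9.5. Hand1, a factor of the outer ventricle wall and the lateral mesoderm, was sparse. At E8.5 its highest level was in pSHF-like cells, with 29.2 and 26.3 UPM, from 17 and 30 UMIs. Few cells gave those UMIs: after each cell was thinned to 10000 UMIs, Hand1 was seen in 1 of 25 and 3 of 43 of them. At E9.5 the CM-like cells led with 79.4 and 106 UPM. BrM-like cells of Ctrl_E9.5 gave 0 Hand1 UMIs in 306 cells, which allows a share of cells with a UMI of up to 0.98%.

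Among the GATA factors, which bind the same core sequence, Gata4 had the narrowest distribution. In CM-like cells it stood at 46.3 UPM in Ctrl_E8.5, 30.3 in cKO_E8.5, 33.7 in Ctrl_E9.5 and 31.7 in cKO_E9.5. In pSHF-like cells it stood at 8.59 UPM in Ctrl_E8.5, 6.13 in cKO_E8.5, 35.6 in Ctrl_E9.5 and 8.71 in cKO_E9.5, while the aSHF-like, MLP-like and BrM-like cells gave between 0 and 2 UMIs per library. In Ctrl_E9.5 the pSHF-like and CM-like levels had overlapping intervals. Gata5 stood in CM-like cells at 56.2 UPM in Ctrl_E8.5, 57.2 in cKO_E8.5, 124 in Ctrl_E9.5 and 83.9 in cKO_E9.5. In pSHF-like cells Gata5 stood at 27.5 UPM in Ctrl_E8.5, 28 in cKO_E8.5, 74.1 in Ctrl_E9.5 and 31.2 in cKO_E9.5. Gata6, a factor of the outflow tract as well as of endoderm, stood in CM-like cells at 99.2 UPM in Ctrl_E8.5, 165 in cKO_E8.5, 144 in Ctrl_E9.5 and 119.9 in cKO_E9.5. In pSHF-like cells Gata6 stood at 39.5 UPM in Ctrl_E8.5, 67.4 in cKO_E8.5, 93.6 in Ctrl_E9.5 and 48.3 in cKO_E9.5. Both extended into the aSHF-like cells of Ctrl_E9.5, with 30.1 and 52.9 UPM. In BrM-like cells they were low in every library, Gata5 between 0 and 2.78 UPM and Gata6 between 1.98 and 9.73 UPM.

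The number of members with their highest level in CM-like cells was 7, 7, 6 and 7 of 8 in library order. The exceptions were Hand1 at E8.5 and Gata4 in Ctrl_E9.5, both highest in pSHF-like cells, and Isl1 at E9.5.

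**Figure D1:**
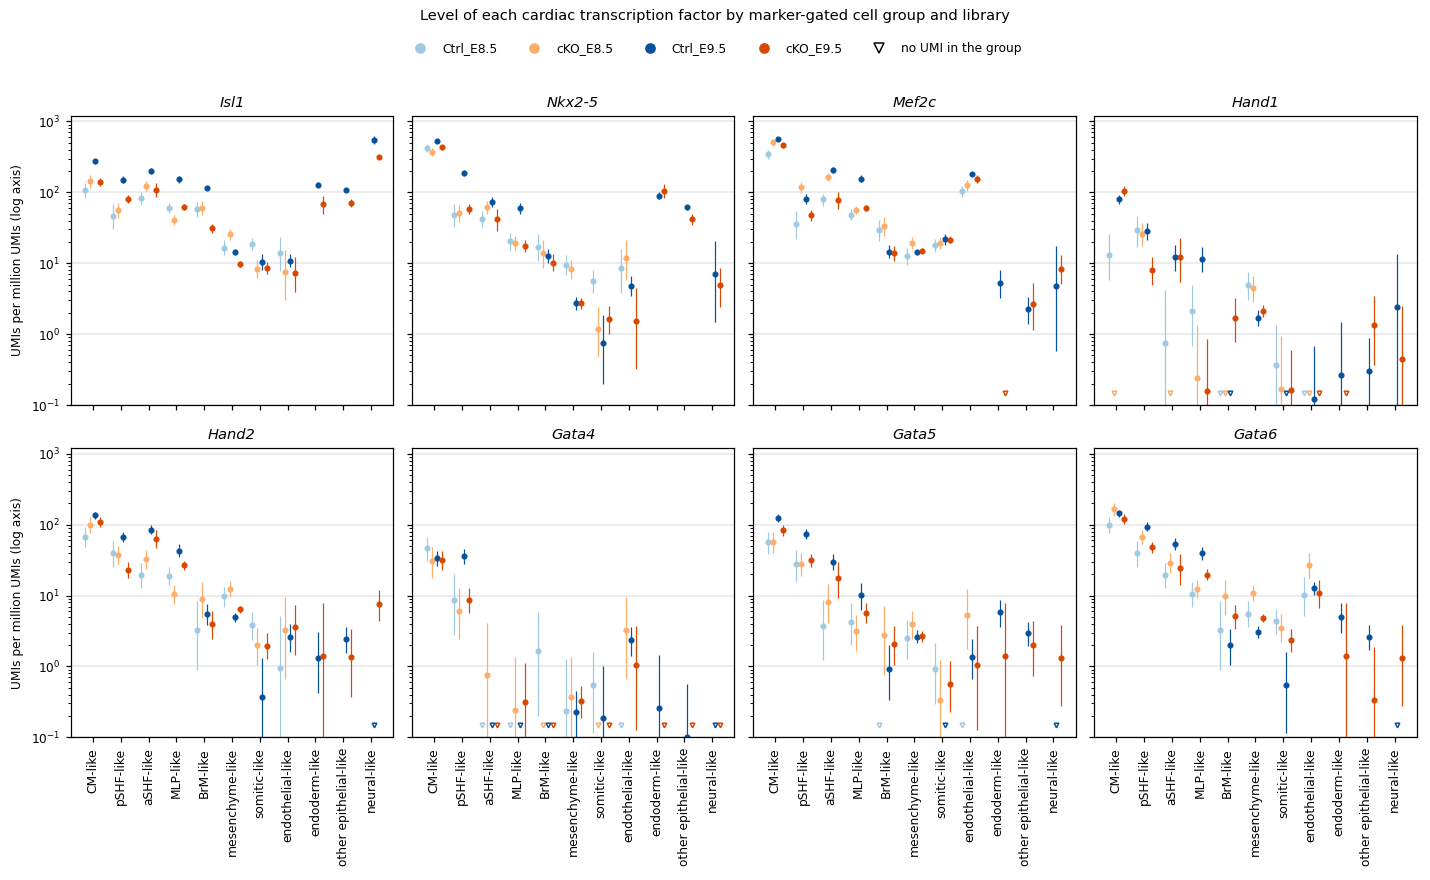
Levels of the 8 members in UMIs per 1000000 UMIs (UPM, vertical axes) by cell group, with 1 point per library and exact Poisson 95% intervals as bars, on a log axis. Open triangles mark groups with no UMI of the gene. The CM-like cells hold the highest points for most members, while Isl1 peaks in the neural-like cells at E9.5, where it reached 549 UPM.

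Shares of cells with a UMI were compared at 1 depth. With every cell thinned to 10000 UMIs and shallower cells left out (135, 84, 555 and 718 cells in library order), Nkx2-5 was seen in 94.2% (88.4 to 97.6%) of CM-like cells in Ctrl_E9.5 and 90.4% (81.2 to 96.1%) in cKO_E9.5, with exact binomial 95% intervals. Mef2c was seen in 97.5% and 84.9%. The other members were less often seen in these cells, down to 21.5% and 28.8% for Gata4. Unthinned, the shares for Nkx2-5 were 96.3% and 92.1%, and for Gata4 33.1% and 36.8%. Endothelial-like cells, which should lack Nkx2-5 for the most part, gave a thinned share of 3.47% and 2.08%, at median depths of 19926 and 16777 UMIs against 15126 and 17266 in CM-like cells. The share of mesenchyme-like cells with Nkx2-5 was 2.07% and 2.06%. BrM-like cells, at 11.1% and 11.8%, stood above both.

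**Figure D2:**
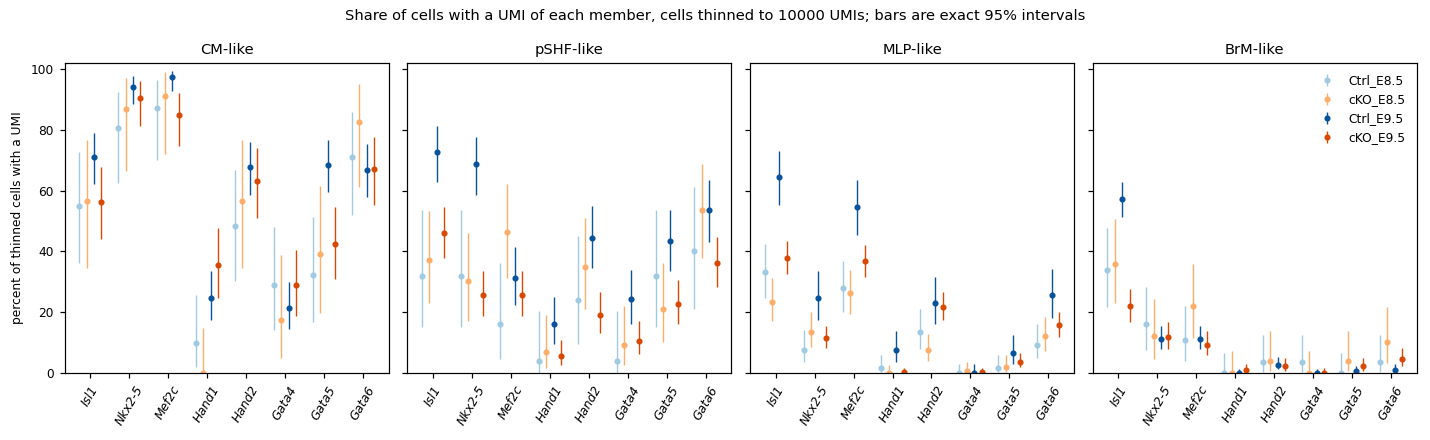
Percent of cells with at least 1 UMI of each member in 4 cell groups and the 4 libraries after thinning to 10000 UMIs, with exact binomial 95% intervals as bars. In pSHF-like cells the Nkx2-5 share was 68.7% in Ctrl_E9.5 and 25.5% in cKO_E9.5, while in CM-like cells both E9.5 libraries stood above 90%.

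At E9.5 the cKO library had lower levels of 5 members in pSHF-like cells and of 4 in MLP-like cells, and of none in CM-like cells, by the following count. A member was counted as lower or higher where it had at least 20 UMIs in both libraries together, its level differed 2-fold or more and the 95% interval of the ratio lay on that side of 1. The same count over all genes gives the background. The median gene was itself lower in cKO_E9.5, with a log2 ratio from -0.19 in aSHF-like cells to -0.26 over all cells among the 5 heart and muscle groups and all cells, so members are read against that shift. The ratios of summed cells cannot tell fewer expressing cells from less RNA per cell. Shares of cells are given beside them, but less RNA per cell would lower a share as well.

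In pSHF-like cells, which supply the inflow region of the heart, all 8 members were lower in cKO_E9.5, and 5 of 8 passed the count, beside 5.65% of 9188 genes. The members' median log2 ratio was -1.40, and that of all genes -0.22. Nkx2-5 stood at 187 UPM in Ctrl_E9.5 and 57.7 in cKO_E9.5, a log2 ratio of -1.70 (-1.97 to -1.43), and its share of thinned cells was 68.7% against 25.5%. Cells that held it had 2.94 and 2.33 UMIs on average. Less RNA per cell would lower the share too, so these values do not separate it from fewer expressing cells. Gata4 stood at 35.6 UPM in Ctrl_E9.5 and 8.71 in cKO_E9.5, a log2 ratio of -2.03 (-2.76 to -1.34). Hand1 stood at 28.5 UPM in Ctrl_E9.5 and 7.99 in cKO_E9.5, a log2 ratio of -1.84 (-2.62 to -1.10) from 57 and 22 UMIs. Both bHLH genes were thus among the members counted: Hand2 stood at 67.1 UPM in Ctrl_E9.5 and 22.9 in cKO_E9.5, a log2 ratio of -1.55 (-2.01 to -1.11), and was seen in 44.4% against 19.1% of thinned cells. Gata5 stood at 74.1 UPM in Ctrl_E9.5 and 31.2 in cKO_E9.5, a log2 ratio of -1.25 (-1.65 to -0.85).

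The 3 pSHF-like members that were not counted had log2 ratios of -0.96 (-1.29 to -0.63) for Gata6, -0.89 (-1.14 to -0.63) for Isl1 and -0.77 (-1.12 to -0.43) for Mef2c. Their intervals lay below 0 but their change was under 2-fold. The pSHF-like cells of the libraries also differed in other genes. Their summed cardiomyocyte markers stood at 626 UPM in Ctrl_E9.5 and 330.4 in cKO_E9.5, with Myh6 and Myh7 at 0 in the former and none of the 8 at 0 in the latter. Summed somitic markers stood at 12 and 67.9 UPM, with Pax3 and Uncx at 0 in both and the other 3 of the 5 seen in both. Of the gate's own markers Wnt2 stood at 132 and 63.5 UPM, and Hoxb1 at 31 and 92.2 UPM. Tbx5, Foxf1 and Osr1 had log2 ratios of -0.61, -0.65 and -0.78 with intervals below 0, and Aldh1a2 had -0.10. Cells that passed this gate thus differed in its own markers between the libraries. Without the 24 and 13 cells that had UMIs of 4 or more of the 8 cardiomyocyte markers, 5 members were still counted, and the log2 ratio of Nkx2-5 was -2.20. With a minimum of 100 UMIs, or with the ratio of all other cells subtracted, 3 members were counted. The part of the somitic and gate markers in these ratios was not tested.

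In MLP-like cells, a progenitor group of the pharyngeal mesoderm that the study named, 4 of the 7 members with enough UMIs were lower in cKO_E9.5, beside 6.10% of 10285 genes. Gata4 had 0 and 2 UMIs and was left out. The members' median log2 ratio was -1.30, and that of all genes -0.22. Isl1 stood at 152 UPM in Ctrl_E9.5 and 62.1 in cKO_E9.5, a log2 ratio of -1.30 (-1.51 to -1.08), and was seen in 64.5% against 38% of thinned cells. Mef2c stood at 156 UPM in Ctrl_E9.5 and 61 in cKO_E9.5, a log2 ratio of -1.36 (-1.57 to -1.14). Nkx2-5 stood at 59.5 UPM in Ctrl_E9.5 and 17.5 in cKO_E9.5, a log2 ratio of -1.76 (-2.14 to -1.39), and was seen in 24.8% against 11.4% of thinned cells. Hand1 had 25 UMIs in 129 cells of Ctrl_E9.5 and 1 UMI in 339 cells of cKO_E9.5, a log2 ratio of -6.20 (-11.56 to -3.59). That Hand1 interval is wide because a single UMI stands on one side.

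The other MLP-like members changed by less than 2-fold. Gata6 had a log2 ratio of -0.999 (-1.40 to -0.59), Gata5 of -0.81 (-1.61 to 0.02) and Hand2 of -0.70 (-1.07 to -0.32). Summed cardiomyocyte markers in these cells stood at 326 UPM in Ctrl_E9.5 and 167 in cKO_E9.5, and none of the 8 was at 0 in either library. Without the 8 and 8 cells that had 4 or more of these markers, the same 4 members were counted, with Isl1 at a log2 ratio of -1.26 and Nkx2-5 at -1.89. The gate markers Arg1, Rdh10 and Vamp8 had log2 ratios of -0.18, -0.63 and -0.11. Aplnr and Nrg1, 2 further MLP markers that the gate did not use, had log2 ratios of -2.87 and -1.81. With a gate on any 4 of the 5 MLP markers, Isl1 and Mef2c remained counted and Nkx2-5 and Hand1 did not. With the ratio of all other cells subtracted, Hand1 alone was counted. Summed somitic markers in these cells stood at 168 and 265 UPM, and their part was not tested.

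In aSHF-like cells, which build the outflow tract, 2 of the 7 members with enough UMIs were lower in cKO_E9.5, beside 5.73% of 8205 genes. Mef2c stood at 209 UPM in Ctrl_E9.5 and 77.8 in cKO_E9.5, a log2 ratio of -1.43 (-1.85 to -1.03). Gata6 stood at 52.9 UPM in Ctrl_E9.5 and 24.1 in cKO_E9.5, a log2 ratio of -1.13 (-1.94 to -0.41). Isl1 and Nkx2-5 had log2 ratios of -0.87 (-1.24 to -0.53) and -0.82 (-1.43 to -0.25). When cells were thinned and gated again, 71 and 7 cells were left and the ratio of Nkx2-5 was 0.02. The intervals for Gata5, Hand2 and Hand1 reached 0, with log2 ratios of -0.79, -0.43 and -0.01, and the sign of Hand1 turned to 0.12 under TMM scaling (a factor per library from the bulk of the genes). The cKO_E9.5 side rests on 37 cells, and a gate with 1 marker more left 6 of them and counted no member. With the ratio of all other cells subtracted none was counted either. The gate markers Fgf10, Fgf8, Sema3c and Rgs5 had log2 ratios of -1.19, -0.75, -0.55 and -0.45, and Nrp2 had 0.75. Summed cardiomyocyte markers stood at 574 and 365 UPM, and without the 19 and 5 cells that had 4 or more of them the same 2 members were counted.

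In BrM-like cells the difference was in Isl1, a factor also known in the head muscle lineage. It stood at 116 UPM in Ctrl_E9.5 and 31 in cKO_E9.5, a log2 ratio of -1.90 (-2.16 to -1.66), and its share of thinned cells was 57.1% (51.2 to 62.8%) against 21.9% (16.8 to 27.8%). Isl1 was the 1 member counted as lower of 5 with enough UMIs, beside 6.93% of 10685 genes. Gata6 stood at 1.98 UPM in Ctrl_E9.5 and 5.11 in cKO_E9.5, from 13 and 27 UMIs, a log2 ratio of 1.37 (0.36 to 2.45), and was the 1 member counted as higher, beside 2.54% of genes. Nkx2-5, Hand2 and Mef2c had log2 ratios of -0.31, -0.46 and -0.08 with intervals across 0, and Mef2c turned to 0.12 under TMM scaling. Hand1 had 0 UMIs in Ctrl_E9.5 and 9 in cKO_E9.5, at least 3.73-fold higher against a floor of 3 UMIs per library. The gate marker Lhx2 had a log2 ratio of -1.54, whereas Tcf21 and Msc had -0.22 and 0.12.

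In CM-like cells none of the 8 members was counted as lower, beside 5.85% of 8976 genes. Isl1 was the nearest, at 274 UPM in Ctrl_E9.5 and 141 in cKO_E9.5, a log2 ratio of -0.96 (-1.20 to -0.73), and it passed 2-fold when each cell was weighted equally or thinned. Nkx2-5 stood at 532 UPM in Ctrl_E9.5 and 431 in cKO_E9.5, a log2 ratio of -0.31 (-0.45 to -0.16) that was close to the all-gene median of -0.20. Mef2c, Hand2, Gata6 and Gata5 had log2 ratios of -0.29, -0.34, -0.27 and -0.56. Hand1 was the member on the other side, at 79.4 UPM in Ctrl_E9.5 and 106 in cKO_E9.5 and a log2 ratio of 0.41 (0.09 to 0.74). Gata4 had a log2 ratio of -0.09 (-0.66 to 0.47), which turned to 0.08 under TMM scaling. The gate markers Actc1, Ttn and Tnnt2 had log2 ratios of -0.55, -0.45 and -0.33. Tnni1, Myl4, Myh7, Myh6 and Myl7 had -0.15, -0.12, -0.12, -0.12 and -0.11. The part of these marker differences in the member ratios was not tested.

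Over all cells of the E9.5 libraries, 2 of 8 members were counted as lower, beside 9.40% of 15130 genes. Nkx2-5 stood at 35.9 UPM in Ctrl_E9.5 and 15.3 in cKO_E9.5, a log2 ratio of -1.23 (-1.32 to -1.14). Gata4 stood at 2.07 UPM in Ctrl_E9.5 and 1.01 in cKO_E9.5, a log2 ratio of -1.03 (-1.39 to -0.68). These sums depend on how many cells of each group a library holds, and CM-like cells made up 2.49% of Ctrl_E9.5 and 1.21% of cKO_E9.5. With the groups of cKO_E9.5 weighted to their shares in Ctrl_E9.5, the log2 ratios of Nkx2-5 and Gata4 were -0.47 and -0.60, and that of Isl1 went from -0.95 to -0.82. Under TMM scaling Nkx2-5 was at -0.97 and no member was counted.

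**Figure D3:**
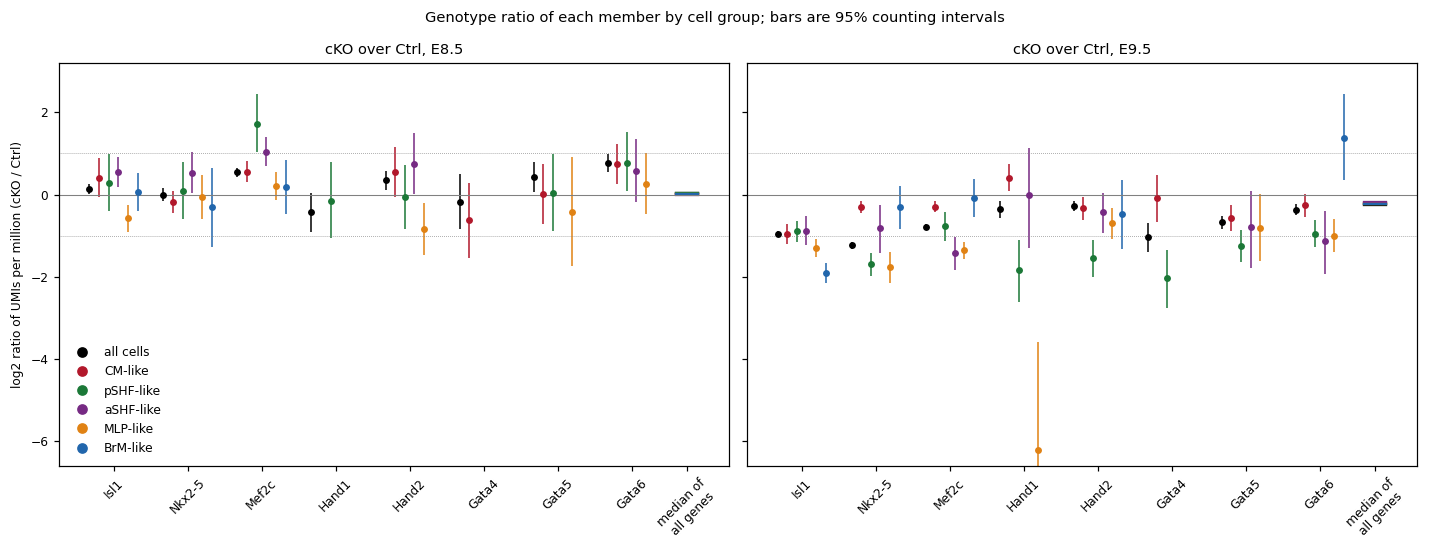
Log2 ratio of each member, cKO over Ctrl, with a panel for E8.5 and one for E9.5, a colour per cell group, 95% counting intervals as bars, dotted lines at 2-fold and short lines at the right for the median of all genes. The E9.5 panel holds the lowest points, down to -6.20 for Hand1 in MLP-like cells, whose bar runs on below the axis to -11.56.

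At E8.5, the earlier stage, no member was 2-fold higher in cKO over all cells, beside 2.53% of 12762 genes. By interval alone, a looser count whose share over all genes was not taken, 5 of 8 members lay above 0. Their log2 ratios were 0.78 (0.56 to 0.999) for Gata6, 0.54 (0.43 to 0.66) for Mef2c, 0.43 (0.07 to 0.80) for Gata5, 0.35 (0.12 to 0.58) for Hand2 and 0.14 (0.01 to 0.27) for Isl1, against an all-gene median of 0.04. Nkx2-5 stood at 25.6 UPM in Ctrl_E8.5 and 25.5 in cKO_E8.5. The cKO embryos of this stage were slightly older by somite count, and the part of age in these ratios was not tested.

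Mef2c was the member counted as higher in both second heart field groups at E8.5. In pSHF-like cells it stood at 36.1 UPM in Ctrl_E8.5 and 118 in cKO_E8.5, a log2 ratio of 1.71 (1.04 to 2.45) from 21 and 135 UMIs, and was 1 of 7 members, beside 2.91% of genes. In aSHF-like cells it stood at 79.5 UPM in Ctrl_E8.5 and 164 in cKO_E8.5, a log2 ratio of 1.05 (0.71 to 1.39), and was 1 of 5 members, beside 2.28% of genes. The aSHF-like value lay close to 2-fold. It fell under that line without the cells that had 4 or more cardiomyocyte markers, with equal weights per cell, and without scrublet doublet calls. The pSHF-like call ended when the gate needed 1 marker more. Isl1, Hand2 and Nkx2-5 in aSHF-like cells had log2 ratios of 0.54, 0.75 and 0.53, all with intervals above 0. The Nkx2-5 ratio turned to -0.79 when cells were thinned and gated again, which left 23 aSHF-like cells of Ctrl_E8.5 and 7 of cKO_E8.5.

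In CM-like cells at E8.5 none of 7 members was counted as higher, beside 3.41% of genes. Gata6 stood at 99.2 UPM in Ctrl_E8.5 and 165 in cKO_E8.5, a log2 ratio of 0.73 (0.26 to 1.22), and Mef2c had 0.56 (0.30 to 0.82). The CM-like gate markers Actc1, Myh7, Myl4, Tnni1 and Myl7 had log2 ratios of 0.85, 0.43, 0.36, 0.30 and 0.25, with intervals above 0. Myh6, Ttn and Tnnt2 had 0.48, 0.17 and 0.11 with intervals across 0. Their part in the member ratios was not tested. Hand1 had 8 UMIs in the 34 CM-like cells of Ctrl_E8.5 and 0 in the 24 of cKO_E8.5, at least 2.62-fold lower against a floor of 3 UMIs. In MLP-like cells none of 6 members was counted as higher, beside 2.96% of genes. There Isl1 stood at 60.4 UPM in Ctrl_E8.5 and 40.6 in cKO_E8.5, a log2 ratio of -0.57 (-0.90 to -0.24), and Hand2 at 19 UPM in Ctrl_E8.5 and 10.6 in cKO_E8.5, a log2 ratio of -0.84 (-1.47 to -0.21). Summed cardiomyocyte markers stood at 421 and 551 UPM in the pSHF-like and at 174 and 123 UPM in the MLP-like cells of Ctrl_E8.5 and cKO_E8.5, with Myh6 at 0 in all 4 sums. Without the 11 and 11 pSHF-like cells that had 4 or more of these markers Mef2c was still counted, with a log2 ratio of 1.31. Without the 7 and 10 such MLP-like cells the log2 ratios of Isl1 and Hand2 were -0.67 and -0.50. Thinning to 10000 UMIs and gating again left 57 MLP-like cells in each E8.5 library. The MLP-like ratio of Isl1 then turned to 0.17.

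Between E8.5 and E9.5 the Ctrl libraries differed in most members within the heart field groups, but not over all cells. Over all cells 0 of 8 members were counted as higher, beside 15.8% of 14441 genes. The members' median log2 ratio there was 0.36, and that of all genes 0.39. The median gene was higher in Ctrl_E9.5, with a log2 ratio from 0.26 in MLP-like cells to 0.39 over all cells among the 5 heart and muscle groups and all cells, and a large share of genes passed the count. In MLP-like cells all 7 members with enough UMIs were counted as higher, beside 11.4% of 9036 genes. When cells were thinned to 10000 UMIs 2 were counted, Isl1 and Mef2c, and with the ratio of all other cells subtracted 4 were. Isl1 stood at 60.4 UPM in Ctrl_E8.5 and 152 in Ctrl_E9.5, a log2 ratio of 1.34 (1.05 to 1.63). Mef2c stood at 48.6 UPM in Ctrl_E8.5 and 156 in Ctrl_E9.5, a log2 ratio of 1.69 (1.38 to 2.003). Gata6, which had more UMIs in these cells than Gata4 or Gata5, stood at 10.6 UPM in Ctrl_E8.5 and 39.4 in Ctrl_E9.5, a log2 ratio of 1.90 (1.24 to 2.60). Nkx2-5 and Hand2 had log2 ratios of 1.55 and 1.18.

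In aSHF-like cells 6 of 7 members were counted as higher in Ctrl_E9.5, beside 10.3% of genes. Hand2 stood at 19.5 UPM in Ctrl_E8.5 and 85 in Ctrl_E9.5, a log2 ratio of 2.12 (1.52 to 2.78), and was seen in 21.8% against 46.3% of thinned cells. Gata5 stood at 3.75 UPM in Ctrl_E8.5 and 30.1 in Ctrl_E9.5, a log2 ratio of 3.01 (1.71 to 4.68) from 5 and 62 UMIs. Nkx2-5 was the member not counted, with a log2 ratio of 0.78 (0.33 to 1.24). In pSHF-like cells 6 of 8 members were counted as higher, beside 10.4% of genes, led by Gata4 at 2.05 (0.76 to 3.72) and Nkx2-5 at 1.96 (1.41 to 2.57). Those values rest on 26 cells of Ctrl_E8.5. With 1 marker more the gate held 12 of them, 1 member was counted, and the log2 ratios of Mef2c and Gata4 were -0.85 and -0.04.

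In CM-like cells 4 of 8 members were counted as higher in Ctrl_E9.5, beside 9.00% of 8386 genes. Under TMM scaling, with 1 marker more or when thinned, 2 were counted, Isl1 and Hand1, and with the ratio of all other cells subtracted Hand1 alone. Hand1 stood at 13.2 UPM in Ctrl_E8.5 and 79.4 in Ctrl_E9.5, a log2 ratio of 2.59 (1.57 to 3.82) from 8 and 172 UMIs. Isl1 stood at 107 UPM in Ctrl_E8.5 and 274 in Ctrl_E9.5, a log2 ratio of 1.35 (0.98 to 1.74). Gata5 and Hand2 had log2 ratios of 1.14 (0.62 to 1.70) and 1.01 (0.53 to 1.51). Nkx2-5 and Gata4 were flatter, at 0.32 (0.13 to 0.53) and -0.46 (-1.10 to 0.23). In BrM-like cells none of 4 members was counted as higher, beside 10.3% of genes. Isl1 stood at 58.1 UPM in Ctrl_E8.5 and 116 in Ctrl_E9.5 there, a log2 ratio of 0.999 (0.65 to 1.37). Mef2c was the 1 member counted as lower, at 29.4 UPM in Ctrl_E8.5 and 14.6 in Ctrl_E9.5, beside 3.07% of genes.

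**Figure D4:**
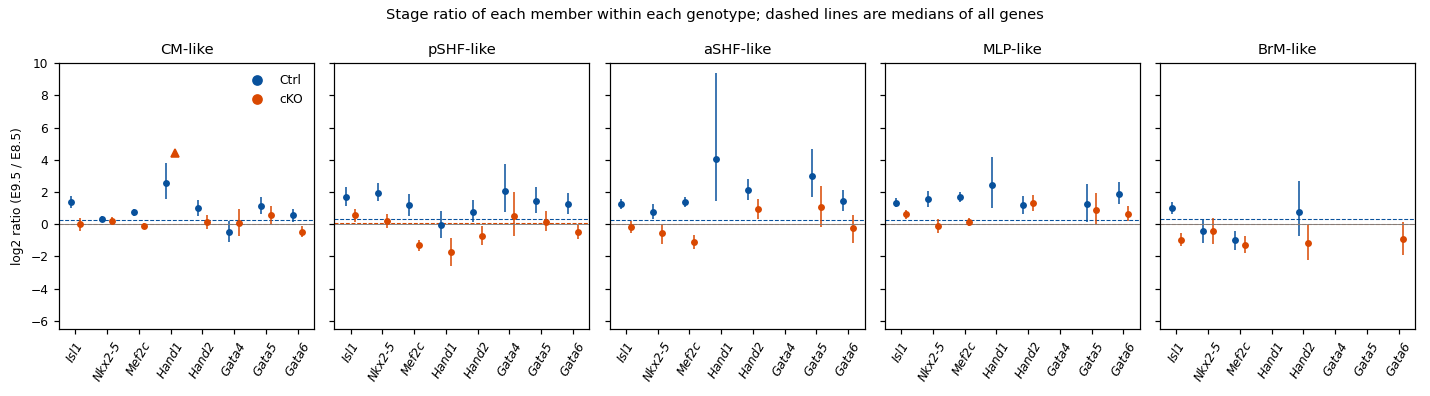
Log2 ratio of each member, E9.5 over E8.5, by cell group for the Ctrl and the cKO libraries, with 95% counting intervals as bars, dashed lines at the median of all genes, and a triangle for a ratio against the floor of 3 UMIs. In the pSHF-like panel each of the 8 Ctrl points lies above its cKO point, for example 1.16 against -1.32 for Mef2c.

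The cKO libraries gave other values for the same stages. In MLP-like cells the log2 ratio of E9.5 over E8.5 was 0.61 (0.35 to 0.88) for Isl1, 0.12 (-0.11 to 0.36) for Mef2c and -0.14 (-0.57 to 0.29) for Nkx2-5. There Hand2 was the 1 of 6 members counted as higher, with 1.32 (0.84 to 1.83), beside 6.99% of genes. In aSHF-like cells Mef2c was the 1 of 6 members counted as lower at E9.5, with a log2 ratio of -1.08 (-1.52 to -0.65), beside 4.14% of genes. In pSHF-like cells Mef2c and Hand1 were the 2 of 8, with -1.32 (-1.68 to -0.97) and -1.72 (-2.58 to -0.87), beside 3.31% of genes. The E8.5 side of that Hand1 ratio rests on few cells, as described above, and its counting interval does not cover spread among cells. In CM-like cells Hand1 was the 1 of 8 members counted as higher, from 0 to 150 UMIs, 20.9-fold against the floor of 3 UMIs, beside 4.53% of genes. In BrM-like cells 2 of 5 were lower, Mef2c and Hand2, with -1.27 (-1.82 to -0.72) and -1.19 (-2.25 to -0.06), beside 4.67% of genes. Over all cells Mef2c was the 1 of 8 members counted as lower, with -1.03 (-1.12 to -0.94), beside 5.47% of genes. The genotype and stage comparisons share libraries, so the 4 sets of ratios are not independent of each other, and whether the stage ratios differ between genotypes was not tested.

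Single cells often held several members at once. In thinned CM-like cells a mean of 5.12 ± 1.21 (SD over cells, n = 121 cells) of the 8 members had a UMI in Ctrl_E9.5 and 4.68 ± 1.56 (n = 73 cells) in cKO_E9.5. In pSHF-like cells the means were 3.55 ± 1.95 (n = 99 cells) and 1.91 ± 1.77 (n = 141 cells). The share of pSHF-like cells with 4 or more members was 54.5% and 19.9%, and the share with none 6.06% and 25.5%. MLP-like cells held fewer, with means of 2.07 and 1.28 and shares with none of 17.4% and 34%. In BrM-like cells the means were 0.838 and 0.527, in mesenchyme-like cells 0.297 and 0.302. At E8.5 the pSHF-like means were 1.84 in Ctrl and 2.4 in cKO, and the MLP-like means 0.949 and 0.852. Cells of 1 library are not replicates, so these SDs describe spread among cells only.

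**Figure D5:**
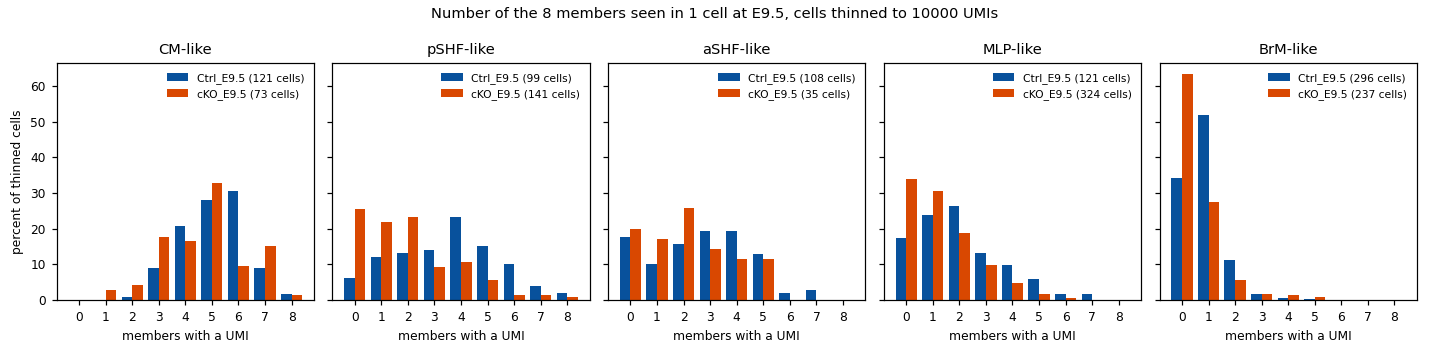
Percent of thinned cells by the number of members with a UMI (0 to 8) at E9.5, in 5 cell groups and both libraries. In pSHF-like cells 6.06% of Ctrl_E9.5 and 25.5% of cKO_E9.5 cells held none of the 8, while each of the 121 and 73 thinned CM-like cells held at least 1.

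Pairs of members were counted in the same thinned cells. Gata4 and Gata5 were seen together in 20.2% (20 of 99 cells) of pSHF-like cells of Ctrl_E9.5, 1.92 times the number that independent detection would give. That was the highest ratio in this group and library among pairs with at least 5 cells under independence. In cKO_E9.5 the pair was seen in 7.8% (11 of 141 cells). In the CM-like cells of Ctrl_E9.5 the same pair was seen in 9.09% (11 of 121 cells), 0.617 times the independent number. Isl1 and Nkx2-5 were together in 54.5% (54 of 99 cells) of pSHF-like cells of Ctrl_E9.5 and 21.3% (30 of 141 cells) in cKO_E9.5. In MLP-like cells they were together in 21.5% (26 of 121 cells) and 6.79% (22 of 324 cells). The shares of cells with Isl1 or Nkx2-5 alone were also lower in cKO_E9.5, so these pair shares do not measure how closely the 2 genes go together. Isl1 and Mef2c were together in 54.6% (59 of 108 cells) of aSHF-like cells of Ctrl_E9.5. In the MLP-like cells of Ctrl_E9.5, all 9 cells with Hand1 also held Nkx2-5.

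Over all 28 pairs, the median ratio of observed to independent cells in the pSHF-like group was 1.19 over 27 pairs in Ctrl_E9.5 and 1.56 over 17 pairs in cKO_E9.5, counting pairs with at least 5 cells under independence. In CM-like cells the medians were 1.0 and 1.04 over 28 pairs. In MLP-like cells they were 1.35 over 12 and 1.5 over 10 pairs. These ratios describe the cells of single libraries and were not tested.

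The genes whose levels ran most like each member were found over 34 sums of a group in a library with at least 50 cells, by Pearson correlation of log2(UPM + 10) among 10733 genes. The sums share libraries and cell groups, so the correlations describe these sums only. For Hand2 the closest genes were Tnni1 (r = 0.97), a troponin of fetal muscle, Gata6 (r = 0.93) and Tnc (r = 0.91). For Gata6 they were Tnni1 (r = 0.95), Hand2 (r = 0.93) and Gata5 (r = 0.93), so these 2 members named each other. For Gata4 they were Wnt2 (r = 0.95), Bves (r = 0.91) and Gata5 (r = 0.90). Tnni1 and Wnt2 are markers of the CM-like and pSHF-like gates. For Hand1 they were Bves (r = 0.95), Acta2 (r = 0.94), the smooth muscle actin also present in early heart muscle, and Smpx (r = 0.93). For Nkx2-5 they were Tcea3 (r = 0.92), Tgfb2 (r = 0.92) and B4galt6 (r = 0.91), and for Gata5 Gm15222 (r = 0.93), Smarcd3 (r = 0.93), a chromatin remodelling subunit of the heart, and Usp2 (r = 0.93). The closest genes of Mef2c were Rcsd1 (r = 0.91), Adgra2 (r = 0.85) and Dok4 (r = 0.84), and those of Isl1 were Jarid2 (r = 0.84), Atat1 (r = 0.84) and Capn6 (r = 0.82). Between members, r ran from 0.27 for Isl1 and Mef2c to 0.93 for Hand2 and Gata6.

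Lists of genes around the members were counted in the same way: 15 partners (T-box and other cofactors), 16 targets (contractile and signalling genes of the heart) and 12 relatives (other NK-2, MEF2, GATA and LIM genes). In pSHF-like cells 7 of 12 targets with enough UMIs were lower in cKO_E9.5, with a median log2 ratio of -1.07 against -0.22 for all genes. They included Bmp4 (291 against 98.8 UPM, log2 ratio -1.56), a growth factor of the outflow tract, Tnni1 (281 against 138 UPM, log2 ratio -1.02) and Myl4 (62.1 against 19.97 UPM, log2 ratio -1.64), the atrial light chain. Myl7, a light chain of the same family, had 219.9 and 141 UPM and was not counted. Of 10 partners, 2 were lower, Tbx20 (8.01 against 1.82 UPM, log2 ratio -2.14) and Tbx3 (13.5 against 4.72 UPM, log2 ratio -1.52). The partners with the most UMIs were not: Ldb1 (41.6 against 35.9 UPM, log2 ratio -0.21), the LIM cofactor, Smarcd3 (38.1 against 24 UPM, log2 ratio -0.67), Tead1 (38.6 against 31.6 UPM, log2 ratio -0.29) and Foxc2 (29 against 32.3 UPM, log2 ratio 0.15). Of 4 relatives Isl2 was lower, from 21 and 11 UMIs.

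In MLP-like cells 6 of 12 targets were lower in cKO_E9.5, with a median log2 ratio of -0.93. Among them were Tnni1 (260.1 against 109 UPM, log2 ratio -1.26) and the second heart field ligands Fgf10 (17.4 against 3.57 UPM, log2 ratio -2.29) and Fgf8 (42.6 against 11.6 UPM, log2 ratio -1.87). The other abundant targets were not counted: Hopx (94.8 against 55.1 UPM, log2 ratio -0.78), Bmp4 (69.6 against 43.8 UPM, log2 ratio -0.67) and Myl7 (28.4 against 32.9 UPM, log2 ratio 0.21). Of 10 partners 2 were lower, Tbx3 and Smyd1, and the most abundant, Foxc2 (57.2 against 43.3 UPM, log2 ratio -0.40) and Foxc1 (30.2 against 39.6 UPM, log2 ratio 0.39), were not counted. The Nkx2-5 relative Nkx2-6 (39.8 against 3.72 UPM, log2 ratio -3.42) was lower too, and Gata3 (4.58 against 13.3 UPM, log2 ratio 1.54) was the relative counted as higher, beside 2.28% of genes. Nkx2-6 was counted as lower in 4 of the 5 groups and had too few UMIs in pSHF-like cells, with 51.7 and 25.4 UPM in CM-like cells of Ctrl_E9.5 and cKO_E9.5.

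In CM-like cells the 8 sarcomere genes of the target list are gate markers and were left out, and 3 of the other 8 were lower in cKO_E9.5: Hopx (165 against 69.1 UPM, log2 ratio -1.25), Fgf8 (111 against 44.4 UPM, log2 ratio -1.32) and Fgf10 (18.9 against 9.17 UPM, log2 ratio -1.05). The target with the most UMIs, Csrp3 (341 against 422 UPM, log2 ratio 0.31), was not, and neither were Bmp4 (225 against 175 UPM, log2 ratio -0.36) and Popdc2 (174 against 127 UPM, log2 ratio -0.46). Of 13 partners 1 was lower, Tbx3, from 31 and 3 UMIs. In aSHF-like cells 2 of 9 targets were lower, Myl4 and Hopx, and none of 8 partners, and in BrM-like cells 2 of 12, Fgf8 and Fgf10. The BrM-like partners split, with Tbx3 and Smarcd3 lower and Tbx2 and Foxc1 (14.5 against 29.9 UPM, log2 ratio 1.05) higher. For the other counts of these lists, the background percentages are those given with the E9.5 members of each group.

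Outside the heart fields the members were mostly low. In somitic-like cells at E8.5, 2 of 5 members were lower in cKO, beside 1.25% of genes: Isl1 at 18.9 UPM in Ctrl_E8.5 and 8.43 in cKO_E8.5, a log2 ratio of -1.17 (-1.68 to -0.66), and Nkx2-5 from 31 and 7 UMIs, a log2 ratio of -2.27 (-3.70 to -1.06). Summed cardiomyocyte markers in these cells, 8 of 8 in Ctrl_E8.5 and 7 in cKO_E8.5, stood at 107 and 46.7 UPM, and their part in the ratio was not tested. At E9.5 the somitic-like cells gave 2 of 5 members counted as higher, beside 3.54% of genes, Hand2 from 2 and 24 UMIs and Gata6 from 3 and 29. Their log2 ratios were 2.41 (0.40 to 5.54) and 2.10 (0.41 to 4.46), and the summed cardiomyocyte markers there stood at 21.9 and 36.7 UPM. In endothelial-like cells at E8.5, Gata6 was the 1 of 4 members counted as higher, at 10.3 UPM in Ctrl_E8.5 and 26.8 in cKO_E8.5, beside 3.05% of genes. In mesenchyme-like cells of the Ctrl libraries, 2 of 7 members were lower at E9.5, Nkx2-5 (9.48 and 2.72 UPM) and Hand1 (4.86 and 1.7 UPM), beside 3.51% of genes. In those of the cKO libraries 4 of 7 were lower, Isl1, Nkx2-5, Hand1 and Gata6, with log2 ratios of -1.39, -1.58, -1.08 and -1.17, beside 5.60% of genes. In endothelial-like cells of the cKO libraries Gata6 was the 1 of 3 counted as lower, with -1.30 (-2.21 to -0.40), beside 5.07% of genes. In the somitic-like cells of the Ctrl libraries 3 of 5 were lower at E9.5, Nkx2-5 (31 and 4 UMIs), Hand2 (21 and 2 UMIs) and Gata6 (24 and 3 UMIs), beside 3.35% of genes.

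The cells that met no gate also held members. At E8.5, 3 of 7 members were higher there in cKO, beside 2.89% of genes. Nkx2-5 stood at 16.8 UPM in Ctrl_E8.5 and 35.4 in cKO_E8.5, a log2 ratio of 1.08 (0.70 to 1.46), Gata6 at 8.09 UPM in Ctrl_E8.5 and 19.5 in cKO_E8.5 and Gata5 at 3.41 UPM in Ctrl_E8.5 and 7.79 in cKO_E8.5. Mef2c, the MADS box factor, came close with a log2 ratio of 0.99 (0.71 to 1.27). Hand1 went the other way, with 32 and 6 UMIs. Their summed cardiomyocyte markers stood at 154 and 171 UPM, and which cell types these cells held was not determined.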

How the data were processed

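Per the labels and the study's methods, GFP+ DAPI− cells were captured on the 10x Genomics Chromium with 3′ v2 chemistry, and the authors ran Cell Ranger (3.1.0 in the processing notes, 3.0.2 in the headers of 2 matrices) on mm10. The authors deposited filtered matrices of raw UMI counts per gene and cell, with no normalization and no cell annotation. All barcodes and 27514 Ensembl IDs common to the 4 tables were kept. Members, marker lists and gene lists were chosen with earlier results of these data known, and the number of markers per gate after the cells were seen.

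Cells were gated on their markers, and UMI counts were summed per gate and library. Levels carry exact Poisson, ratios exact conditional binomial and shares Clopper-Pearson 95% intervals, for counting error only, and a share of 0 carries the limit of 3 counts of the total. With 1 library per condition no test was run. A ratio with 0 UMIs on 1 side was taken against 3 UMIs, and none was given where both sides had 3 or fewer. For shares and pairs, cells were thinned to 10000 UMIs and kept their groups. For ratios of thinned cells, the cells were gated again. Cells meeting several gates were left out of the groups as mixed, and scrublet marked 26, 21, 0 and 2 cells, which at E9.5 is too few for the caller to have worked. All 8 members are named. Likeness was ranked by Pearson r over sums of at least 50 cells among genes with at least 500 UMIs, with the 3 closest genes named. From each list, the 4 genes with the most UMIs in a group and genes called unlike their list are named, and other list genes were named after their values had been seen. Total UMIs per library were 25391654, 25847734, 94834703 and 104773150. Promoter windows and gene positions are from RefSeq (GRCm38.p6). Alternatives covered the scaling (edgeR 4.0.16 TMM in R 4.3.3), cell filters, gates, thinning, weights, doublets and minimum counts. Python 3.11.15 with numpy 2.4.6, scipy 1.17.1, pandas 2.3.3, scanpy 1.11.5 and matplotlib 3.10.9 was used. The ratio and interval code was tested on simulated data. A marker of the BrM-like gate is not reported here.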

Additional observations from a re-analysis of the deposited data

Results flagged for a closer look

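For 13 pairs of a member and a cell group, the log2 ratio of cKO over Ctrl had its counting interval on opposite sides of 0 at the 2 stages. The values are the E9.5 ratio minus the E8.5 ratio, each rests on 4 libraries, and the difference was not tested. Over all cells it was -1.09 for Isl1, -1.33 for Mef2c, -0.62 for Hand2, -1.10 for Gata5 and -1.14 for Gata6. In aSHF-like cells it was -1.42 for Isl1, -1.35 for Nkx2-5 and -2.47 for Mef2c. In pSHF-like cells it was -2.48 for Mef2c and -1.73 for Gata6. In CM-like cells it was -0.85 for Mef2c and 1.80 for Hand1, the latter against a floor of 3 UMIs at E8.5. In mesenchyme-like cells it was -1.17 for Isl1. Mef2c was thus among them over all cells, which include the groups, and in aSHF-like, pSHF-like and CM-like cells. In each it was higher in cKO_E8.5 and lower in cKO_E9.5 than in the Ctrl library of that stage. It was not among them in MLP-like, BrM-like, mesenchyme-like or endothelial-like cells, which were examined too. All 8 members were examined in each group named here, and how many of all genes turn in this way was not counted. Signs were read against 0 and not against the median gene. Over all cells that median was -0.26 at E9.5 and 0.04 at E8.5, and Hand2 at E9.5 had -0.27.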

How the results depend on the processing

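The number of members counted at E9.5 moved as follows. Over all cells, 2 members became 0 under TMM scaling, 1 when cells were thinned to 10000 UMIs, 1 without the highest 5% of scrublet scores and 0 at Ctrl group shares. In CM-like cells 0 became 1 (Isl1) when thinned, without those scores, or with equal cell weights. In pSHF-like cells 5 became 3 with the cells outside the group subtracted and 3 at a minimum of 100 UMIs. In aSHF-like cells 2 became 0 with 1 marker more, 1 when thinned, 1 without the highest scrublet scores and 0 with outside cells subtracted. In MLP-like cells 4 became 2 with any 4 markers and 1 with outside cells subtracted.

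For the Ctrl stage ratios, CM-like cells went from 4 to 2 under TMM scaling, with 1 marker more and when thinned, and to 1 with outside cells subtracted. The pSHF-like count went from 6 to 1 with 1 marker more, 2 when thinned and 3 with outside cells subtracted. The MLP-like count went from 7 to 2 when thinned and 4 with outside cells subtracted. With 1 marker more, 2 pSHF-like stage ratios reversed, Mef2c to -0.85 and Gata4 to -0.039, on 12 cells of Ctrl_E8.5. At E8.5 the aSHF-like count of 1 became 0 without scrublet calls, without the highest scores, without cells of 4 or more cardiomyocyte markers, with equal weights and with outside cells subtracted, and the pSHF-like count of 1 became 0 with 1 marker more and 2 when thinned. Thinning leaves fewer UMIs and, because cells were gated again, also fewer cells per group. The aSHF-like cells of cKO_E9.5 went from 37 to 7. A gate with 1 marker more left fewer cells in most groups, but MLP-like cells of Ctrl_E9.5 went from 129 to 135. The causes of the other moves were not tested.

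Of 819 values of single members under alternatives, 696 stayed within their counting interval and 121 moved further, and those 2 pSHF-like stage ratios were the only counted members to change sign. The sign also turned in 50 values of members that were not counted. The gate of any 4 MLP markers, the scrublet score limit, the limit on cardiomyocyte markers and the Ctrl group shares were chosen after seeing the data. With 1 library per condition, no library was left out. No paired analysis was possible because each condition has a single library.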
